A study of Homo sapiens with 7 samples.

Results

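The interferon system of Huh-7 cells was followed through 47 genes, a list made up of interferon-stimulated genes and of sensors of foreign nucleic acid. Members were the rows of the deposited table whose symbol was on this list, and all 47 were found among 58174 genes. Huh-7 is an established cell line derived from a human hepatocellular carcinoma. Total RNA was sequenced 72 h after the cells had been transfected either with control siRNA (siC, 3 libraries) or with siRNA pools directed against IGF2BP1 (siIGF2BP1, 4 libraries). The target is an oncofetal mRNA-binding protein, and the comparison asks which transcripts change in abundance when it is depleted. Both groups were unmodified Huh-7 cells that had received double-stranded siRNA. Cells without siRNA were not analysed here, so a response to transfection shared by both groups cannot be seen. The libraries come from 1 cell line, and the labels do not say whether they came from separate cultures, so p-values measure the spread between these libraries only.

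Cells detect foreign RNA with the helicases RIG-I (gene DDX58) and MDA5 (IFIH1) in the cytosol and with TLR3 in endosomes, and foreign DNA with cGAS (MB21D1). RIG-I and MDA5 signal through the adaptor MAVS, and cGAS through STING (TMEM173), to the transcription factors IRF3 and IRF7, which switch on interferon genes. Secreted interferon binds its receptors and activates STAT2, which joins IRF9 in the factor ISGF3. ISGF3 binds the interferon-stimulated response element in the promoters of effector genes such as IFIT1, MX1, OAS1 and ISG15, whose products bind viral RNA, block viral assembly or modify proteins. Hepatocytes respond to interferon in this way during viral hepatitis.

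Libraries held 12826550 to 33212205 reads on genes, recovered from FPKM (fragments scaled to gene length and library size) and gene length. The targeted transcript IGF2BP1 (chr17:48997385-49056145, plus strand, GRCh38) was at 81.9, 80.4 and 84.4 FPKM in siC and at 15.6, 15.7, 16.6 and 15.3 FPKM in siIGF2BP1, that is at 19.2% of siC (log2 change -2.37, SE 0.0558, limma adjusted p = 1.16e-05). Library siC replicate 3 stood apart from the others, with a correlation of log2 values of 0.916 and 0.929 with the other siC libraries, which correlated with each other at 0.971. Calls of members that change without it are given both ways. All 7 hepatocyte markers on a list of such genes were expressed, and their summed level was 5392 to 6575 FPKM in siC and 5855 to 6012 FPKM in siIGF2BP1. Of 7 leukocyte markers, 5 had means under 1 FPKM, and the defining marker PTPRC was at 0.00249 FPKM in siC and 0.00709 FPKM in siIGF2BP1. The summed level of the leukocyte list was 147.8 to 163.8 FPKM in siC and 114.9 to 131.3 FPKM in siIGF2BP1, nearly all of it LYZ, and CD14 was at 0.892 and 2.25 FPKM (limma adjusted p = 0.0338, or 0.00984 without siC replicate 3). The 5 fibroblast markers summed to 8.93 to 9.38 FPKM in siC and 7.46 to 8.31 FPKM in siIGF2BP1, most of it LUM (7.47 and 5.70 FPKM, limma adjusted p = 0.0235), with COL1A2 at 1.03 and 1.29 FPKM and DCN at 0.000810 and 0.00251 FPKM. The 3 endothelial markers summed to 2.59 to 3.07 and 2.86 to 3.30 FPKM, most of it PECAM1 (2.81 and 3.01 FPKM), with CDH5 at 0 in siC and at 0.0209 FPKM in siIGF2BP1. The part of these levels in the results below was not tested.

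In siIGF2BP1 cells 4 members rose. APOBEC3C, a cytidine deaminase that restricts retroelements, was 8.37-fold higher by the ratio of mean FPKM, and IFI6, an interferon-induced membrane protein, was 3.57-fold higher. PARP9 and PARP14, ADP-ribosyltransferases encoded near each other on chromosome 3, were 1.52-fold and 1.31-fold higher. No member passed the test with a lower level. Of all genes tested, 1.65% were higher and 2.28% lower. The calls depended on the libraries used, and 0 members passed without siIGF2BP1 replicate 1 or 4. In those fits 66 and 68 of 14839 genes tested were higher and 72 and 77 lower, against 245 and 338 with all 7 libraries. The most abundant members, the RNA editor ADAR, the adaptor MAVS and the transcription factor IRF3, did not pass the test. Levels of classic induced genes differed widely. IFIT1, MX1 and OAS1 had means under 1 FPKM in both groups, while ISG15 was at 9.26 FPKM in siC and 10.5 FPKM in siIGF2BP1. MX2 (7.72 and 8.10 FPKM) and USP18 (11.9 and 10.6 FPKM) were expressed too. RSAD2, a gene outside the 47 named after its values were seen, was listed at 0 in every library.

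The test was limma on log2(FPKM + 0.1) over the 14839 genes that averaged 1 FPKM or more across all libraries, two-sided, with a Benjamini-Hochberg adjusted p of at most 0.01 as the threshold. On this scale the change of genes with low values is understated. Of the 47 members, 19 were tested (40.4% of the list, while 53.9% of 19799 protein-coding genes reached that mean). Of the 19, 4 were higher and 0 lower, where 1.65% of all tested genes were higher and 2.28% lower. APOBEC3C (0.249 FPKM in siC) and DDX58 (0.925 FPKM in siC) reached the minimum only through their siIGF2BP1 values, so the count of 4 includes a gene that the filter favours. At an unadjusted p under 0.05, 5 members were higher and 4 lower, as were 1638 and 2200 of the 14839 genes tested. The 19 members had a median log2 change of 0.063, against -0.017 over all tested genes, with 11 means higher and 8 lower. Without siC replicate 3 this median was 0.0052, against -0.031.

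The siC and siIGF2BP1 libraries did not overlap for 5 tested members with higher values and 3 with lower values, where 11.9% of all tested genes were separated upwards and 15.1% downwards. With voom, which weighs the recovered reads by their precision and tested genes with a mean of at least 10 reads, 33 members were tested and the same 4 were higher and 0 lower, where 2.64% and 2.98% of 17253 genes were. Without siC replicate 3, 6 members were higher, DTX3L and IFIT5 beside the 4, and 3 were lower, IFI35, MAVS and STAT2. In that fit 3.59% of all tested genes were higher and 6.67% lower. The number of higher members was 1 without siC replicate 1, 2 without siC replicate 2, 0 without siIGF2BP1 replicate 1 or 4 and 1 without siIGF2BP1 replicate 2 or 3, and no member was lower in those 6 fits. Over all 14839 tested genes the calls also fell in those 6 fits, to 66 to 86 higher and 53 to 109 lower, from 245 and 338. In bulk RNA a change in every cell and a change in the share of cells that express a gene cannot be told apart.

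**Figure D1:**
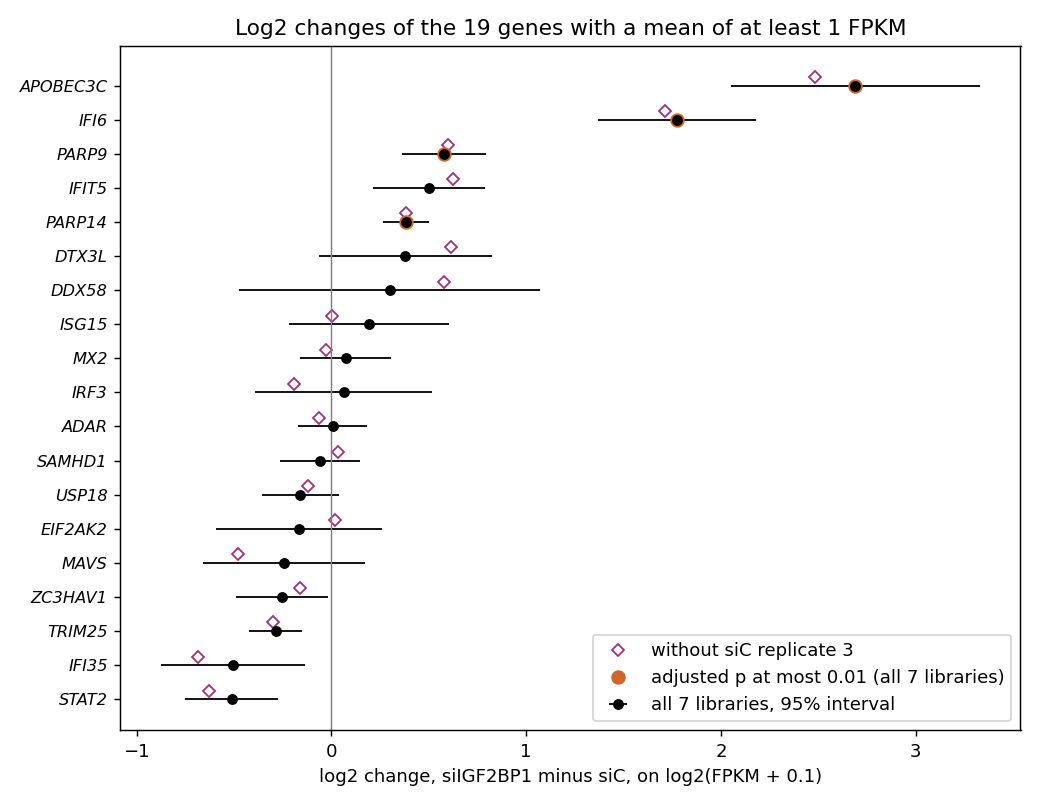
Log2 change (siIGF2BP1 minus siC, on the log2(FPKM + 0.1) scale) of the 19 tested members. Black points with bars are the change in all 7 libraries with its 95% interval, orange rims mark the 4 members past the threshold, and open diamonds give the change without siC replicate 3. APOBEC3C (2.69) and IFI6 (1.77) lie far to the right, PARP9 (0.58) and PARP14 (0.38) follow with short bars, and STAT2 and IFI35 lie lowest at -0.51.

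Mean levels spanned from 0 to 86.9 FPKM in siC. ADAR alone stood at the 98.2th percentile of protein-coding genes, MAVS at the 90.8th and IRF3 at the 84.5th. Of the 47 members, 6 averaged 10 FPKM or more, 13 had means of 1 to 10 FPKM, 17 of 0.1 to 1 FPKM and 11 under 0.1 FPKM. The members under 0.1 FPKM had at most 53 reads in all 7 libraries together, out of 131490708 reads on genes. FPKM are scaled to a single deposited length per gene. These levels can be set against each other only as far as that length matches the transcripts made, which was not tested.

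**Figure D2:**
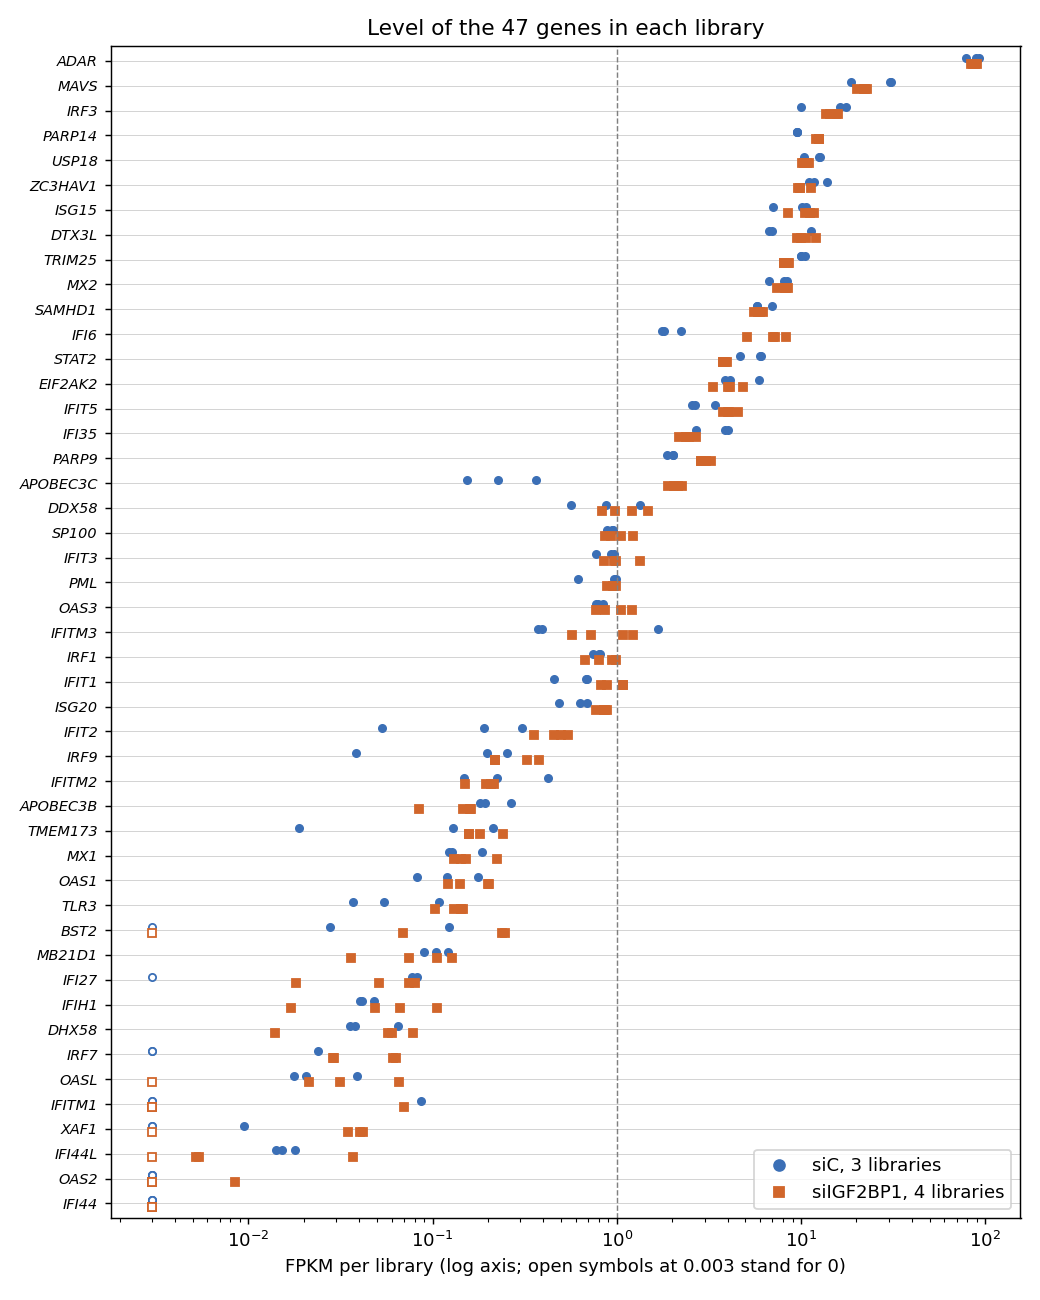
FPKM of each of the 47 members in each library on a log axis, ordered by mean, with siC libraries as blue circles and siIGF2BP1 libraries as orange squares. Open symbols at the left edge stand for 0, and the dashed line marks the minimum mean of 1 FPKM for the test. The groups lie apart for APOBEC3C, IFI6, PARP9 and PARP14 and overlap for most other members.

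The promoters of the members were examined because the response element is what ties many of them together. The element was searched as GAAANNGAAA, or TTTCNNTTTC on the other strand, in RefSeq promoters of GRCh38.p14 that run from 250 bases before to 50 after a gene's start, with overlapping matches counted. Where a gene had several promoter entries, the one with most matches was taken. Of the 47 members, 33 were matched to a promoter and 20 of these (60.6%) held at least 1 match, 12 of them at least 2. Among all 27305 genes with a promoter 4.38% held a match, and among 14396 protein-coding genes 4.25% did. The stretches below, with 15 bases on each side, show the matches in the members past the threshold that had one and in 3 classic induced members, with matches in capitals, written 5′ to 3′ on the strand of the gene. IFI6 lies at chr1:27672261-27672363 (minus strand), PARP9 at chr3:122564317-122564356 (minus strand), PARP14 at chr3:122680795-122680834, IFIT1 at chr10:89392492-89392544, ISG15 at chr1:1013369-1013414 and MX1 at chr21:41420554-41420593 (plus strand). IFIT5, at chr10:89414508-89414588 on the plus strand, was added after its values were seen.
IFI6: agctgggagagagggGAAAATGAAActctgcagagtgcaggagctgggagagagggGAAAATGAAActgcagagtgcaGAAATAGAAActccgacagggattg
PARP9: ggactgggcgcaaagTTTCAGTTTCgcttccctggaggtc
PARP14: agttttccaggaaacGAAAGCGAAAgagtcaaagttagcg
IFIT5: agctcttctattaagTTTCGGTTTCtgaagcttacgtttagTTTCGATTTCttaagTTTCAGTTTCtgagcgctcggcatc
IFIT1: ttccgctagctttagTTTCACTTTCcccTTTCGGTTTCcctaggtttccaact
ISG15: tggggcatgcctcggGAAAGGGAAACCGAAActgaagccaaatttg
MX1: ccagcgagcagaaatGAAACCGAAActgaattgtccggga

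IFI6 had 3 matches on its own strand, at 156, 115 and 93 bases before its start. PARP9 and DTX3L are transcribed away from each other, and their promoters share 1 match, which lies 41 bases before the start of PARP9 and 6 bases before that of DTX3L. The match of PARP14 begins 29 bases before its start. IFIT5 had 3 matches in a row, IFIT1 2, ISG15 2 that overlap, and MX1 1 that begins 11 bases after its start. OAS1, also a classic induced gene, had no match in this window, and no promoter was given for APOBEC3C. Of the 20 members with a match 7 were tested and 3 were higher, IFI6, PARP9 and PARP14, while DTX3L, which shares its match with PARP9, was not. Of the 13 members without a match 8 were tested and 0 were higher, where 1.65% of all tested genes were. These are counts over few genes, and the difference between them was not tested. The search allowed only a gap of 2 bases between the GAAA stretches. Among members without a match, DDX58, IFI35 and OAS1 held GAAA pairs with a gap of 1 base. TRIM25 held such a pair on the other strand. Members without a match are therefore not shown to lack a response element, and whether these pairs act as one was not tested. The median log2 change was 0.38 in the former 7 and -0.25 in the latter 8, while 13 of the 20 had a mean under 1 FPKM, with a median level of 0.839 FPKM against 2.90 FPKM for those without a match. A match is a stretch of letters and was not measured to be bound.

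**Figure D3:**
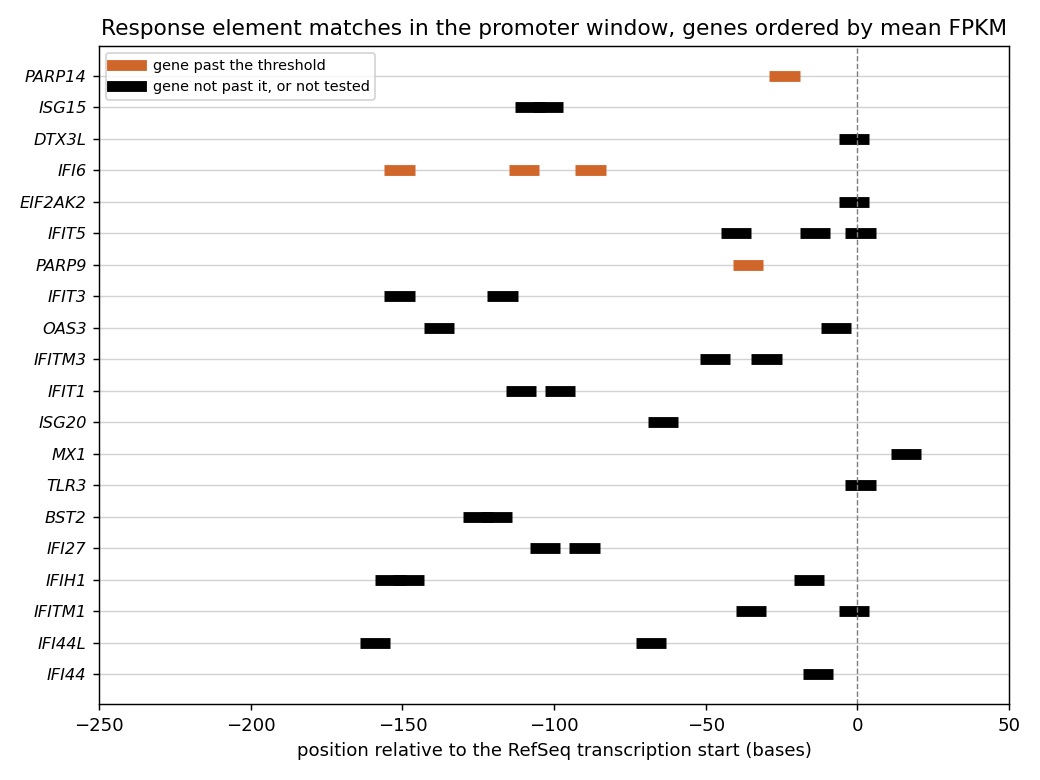
Position of each response element match (bars of 10 bases) relative to the RefSeq transcription start, in bases, for the 20 members that had one, ordered by mean FPKM from the top. Orange marks IFI6, PARP9 and PARP14, which rose, and black the members that did not pass the test or were not tested. Matches lie from 164 bases before the start (IFI44L) to 11 bases after it (MX1).

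Of the sensors and their adaptors none passed the test. MAVS (chr20:3846799-3876123, plus strand), the adaptor of RIG-I and MDA5, was at 30.6, 30.4 and 18.6 FPKM in siC and at 22.9, 20.2, 22.2 and 22.1 FPKM in siIGF2BP1. Library siC replicate 3 was the lowest of all 7, below every siIGF2BP1 library, while the other siC libraries were the highest. Over all libraries its log2 change of -0.24 (SE 0.177) had a limma adjusted p of 0.452, and it was -0.48 (adjusted p = 0.00293) without siC replicate 3, and DTX3L, IFIT5, STAT2 and IFI35 likewise turned on that library. EIF2AK2, the kinase PKR that halts translation on double-stranded RNA, was at 4.64 ± 1.12 and 4.09 ± 0.637 FPKM (SD, n = 3 and 4). Its log2 change of -0.17 had a limma adjusted p of 0.634. DDX58, the sensor RIG-I, was at 0.873, 0.567 and 1.34 FPKM in siC and between 0.832 and 1.48 FPKM in siIGF2BP1, with overlapping groups (log2 change 0.30, 95% interval -0.47 to 1.07).

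The other sensors were at low levels. TLR3 had 8, 8 and 10 reads in siC and 16, 18, 13 and 9 reads in siIGF2BP1 (0.0666 and 0.131 FPKM, voom log2 change 1.23, adjusted p = 0.0510). IFIH1, the sensor MDA5, had 13 and 18 reads in the 2 groups, and DHX58, the related helicase LGP2 that lacks the signalling domain, had 13 and 12. The DNA sensing arm was as low, with 29 and 24 reads of MB21D1 (cGAS) and 35 and 44 of TMEM173 (STING). For these genes the depth does not allow a moderate difference to be seen.

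Of the transcription factors only STAT2 and IRF3 reached the minimum for the test, and neither passed it. STAT2 (chr12:56341597-56360203, minus strand) was at 5.96, 6.08 and 4.70 FPKM in siC and at 3.89, 3.76, 3.79 and 3.98 FPKM in siIGF2BP1. Every siIGF2BP1 library was below every siC library, of which replicate 3 was the lowest. The log2 change of -0.51 (SE 0.102, limma adjusted p = 0.0216) missed the threshold, as it narrowly did with voom (-0.54, adjusted p = 0.01003), and was -0.63 (adjusted p = 0.00133) without siC replicate 3. IRF9, the DNA-binding part of ISGF3, had 47 reads in siC and 69 in siIGF2BP1 (0.163 ± 0.112 and 0.285 ± 0.0803 FPKM, SD, n = 3 and 4), and 2 of the siC reads came from replicate 3.

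IRF3 (chr19:49659569-49665875, minus strand), which the sensors activate, was at 17.7, 16.3 and 9.96 FPKM in siC and at 14.4, 13.7, 15.6 and 15.8 FPKM in siIGF2BP1. The lowest value was again that of siC replicate 3, and the groups overlapped (log2 change 0.063, SE 0.192, limma adjusted p = 0.883), with the direction turned without that library (-0.19). IRF3 shares 734 exon bases with BCL2L12 on the other strand. IRF7, the factor that amplifies interferon production, had 2 reads in siC and 8 in siIGF2BP1. IRF1 was at 0.784 ± 0.0340 and 0.851 ± 0.144 FPKM (SD, n = 3 and 4).

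IFI6 (ENSG00000126709, chr1:27666064-27672212, minus strand) was at 1.80, 2.24 and 1.76 FPKM in siC, from 34, 62 and 21 reads. In siIGF2BP1 it was at 7.02, 5.12, 8.29 and 7.21 FPKM, from 110, 83, 95 and 81 reads. The lowest siIGF2BP1 library, replicate 2, was more than any siC library, and siC replicate 3 was close to siC replicate 1. Its log2 change reached 1.77 (SE 0.172, 95% interval 1.37 to 2.18, limma adjusted p = 0.00162) and with voom 1.75 (adjusted p = 0.00125). Without siC replicate 1 it was 1.73 (adjusted p = 0.0107), without siIGF2BP1 replicate 1 1.76 (0.0109) and without siIGF2BP1 replicate 4 1.74 (0.0105), and in the other 4 fits with 1 library left out it passed. Of the genes beside IFI6, AHDC1, FAM76A and STX12 had log2 changes of 0.015, 0.026 and -0.45 that did not pass the test, and FGR was listed at 0 in siC. Without siC replicate 3 AHDC1 turned to -0.13, and STX12, at -0.37, passed (adjusted p = 0.00865). The exons of IFI6 share 216 bases with those of the noncoding gene LINC02574 on the same strand, which was listed at 0 in both groups. The part of these bases in the IFI6 values was not tested.

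IFI35 (chr17:43006740-43014456, plus strand), which takes part in innate signalling, was at 4.02, 3.89 and 2.69 FPKM in siC and at 2.46, 2.19, 2.68 and 2.38 FPKM in siIGF2BP1. Only a narrow gap separated siC replicate 3 from the highest siIGF2BP1 library, and its log2 change was -0.51 (SE 0.156, with a limma adjusted p of 0.0880), or -0.69 (adjusted p = 0.00552) without siC replicate 3. IFI27, IFI44L and IFI44, which interferon strongly induces in many cell types, had 33, 18 and 0 reads over all 7 libraries. At this depth 0 reads allow a level of up to 0.0113 FPKM for IFI44 (3 reads over all libraries, counting error only).

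The IFIT genes, whose products bind viral RNA, lie side by side on chromosome 10, and IFIT5, IFIT1 and IFIT2 had all siIGF2BP1 libraries above all siC libraries, as had 11.9% of all tested genes. IFIT1 and IFIT2 had means under 1 FPKM and were not in that tested set. The summed level of all 4 IFIT members was 4.34 to 4.87 FPKM in siC and 6.02 to 7.18 FPKM in siIGF2BP1, most of it IFIT5. IFIT5 (chr10:89414568-89421605, plus strand) was at 2.66, 2.57 and 3.42 FPKM in siC and at 4.05, 4.56, 3.78 and 4.01 FPKM in siIGF2BP1. Replicate 3 was the highest of the siC libraries, and its log2 change was 0.50 (SE 0.121, with a limma adjusted p of 0.0415), or 0.63 (adjusted p = 0.00549) without it. IFIT1 was at 0.685, 0.690 and 0.457 FPKM in siC and at 1.08, 1.09, 0.883 and 0.818 FPKM in siIGF2BP1, from 200 and 287 reads in all (voom log2 change 0.64, adjusted p = 0.0504). IFIT2 had 17, 40 and 3 reads in siC and 34, 42, 27 and 19 reads in siIGF2BP1 (0.183 and 0.464 FPKM, voom log2 change 1.38, adjusted p = 0.0649).

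IFIT3 was at 0.892 ± 0.108 and 1.04 ± 0.208 FPKM (SD, n = 3 and 4), and its groups overlapped. The exons of IFIT2 and IFIT3 share 65 and 94 bases with those of LIPA, which lies on the other strand. LIPA, a lysosomal lipase outside the list, was at 7.81 and 11.8 FPKM (log2 change 0.59, limma adjusted p = 0.00309). The library kit keeps the strand of the RNA, but whether reads were counted by strand is not stated in the sources used here, so reads over these bases cannot be told apart, and their part in the IFIT2 and IFIT3 values was not tested. None of the IFIT members passed the threshold in the 7 libraries.

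PARP9 and PARP14, with the ubiquitin ligase DTX3L that forms a complex with PARP9, are close neighbours on chromosome 3. All 3 are induced by interferon in many cell types and were expressed in all 7 libraries. PARP14 (chr3:122680839-122730840, plus strand) stood at 9.52, 9.46 and 9.48 FPKM in siC and at 12.5, 12.1, 12.5 and 12.5 FPKM in siIGF2BP1. Both groups were narrow, and siC replicate 3 lay between the other siC libraries. Its log2 change was 0.38 (SE 0.0505, 95% interval 0.27 to 0.50, limma adjusted p = 0.00505). PARP9 (chr3:122527924-122564577, minus strand) was at 1.88, 2.03 and 2.03 FPKM in siC and at 2.86, 3.25, 2.87 and 3.06 FPKM in siIGF2BP1, again without overlap (log2 change 0.58, SE 0.0908, limma adjusted p = 0.00942).

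Both calls were close to the threshold and were lost whenever a library other than siC replicate 3 was left out, with log2 changes of 0.54 to 0.60 and adjusted p of 0.0321 to 0.0398 for PARP9, and of 0.38 to 0.40 and 0.0177 to 0.0310 for PARP14. Without siC replicate 3 they were 0.60 (adjusted p = 0.00736) and 0.38 (adjusted p = 0.00211). With no filter PARP9 had an adjusted p of 0.0212 and PARP14 of 0.00837. DTX3L (chr3:122564338-122575203, plus strand) was at 6.74, 6.97 and 11.3 FPKM in siC and at 10.7, 12.1, 9.54 and 10.0 FPKM in siIGF2BP1. Its siC replicate 3 lay among the siIGF2BP1 libraries, and the log2 change was 0.38 (limma adjusted p = 0.262), or 0.62 (adjusted p = 0.00757) without that library. The exons of PARP9 and DTX3L share 139 bases on opposite strands. PARP15, between DTX3L and PARP14, was at 0.157 and 0.162 FPKM, and the flanking genes KPNA1 and HSPBAP1 had log2 changes of -0.22 and -0.13 that did not pass the test. Further out, FAM162A, CSTA and MIX23 had log2 changes of 0.48, 0.45 and 0.23, SLC49A4 of 0.056 and WDR5B of -0.26, and none passed. Without siC replicate 3 KPNA1 turned to 0.072 and CSTA to -0.015, while FAM162A was at 0.34 (limma adjusted p = 0.0384).

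**Figure D4:**
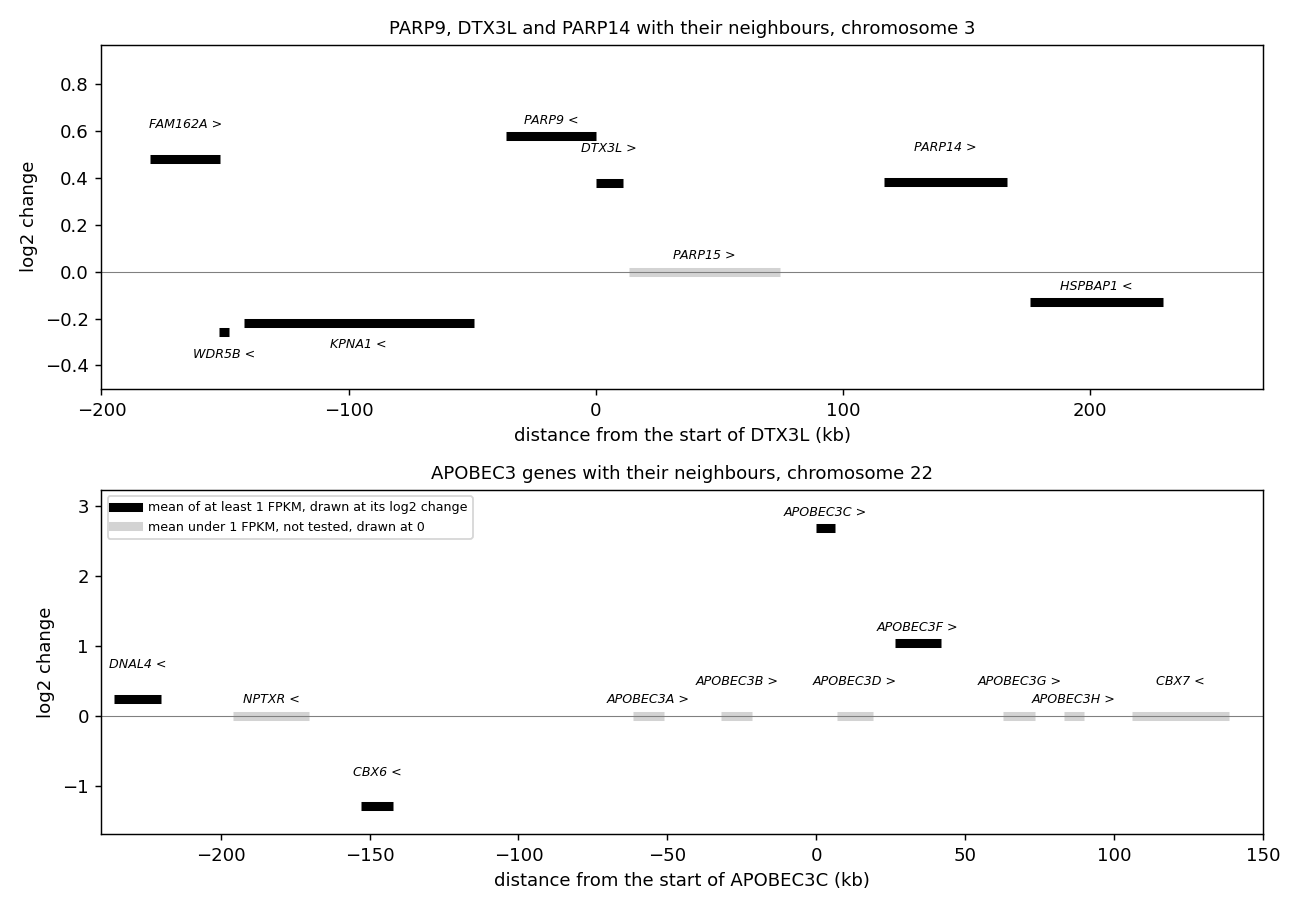
Genes around PARP9, DTX3L and PARP14 (top) and around the APOBEC3 genes (bottom), drawn to scale by distance in kb from the start of DTX3L or APOBEC3C, with the log2 change in the 7 libraries on the vertical axis and arrowheads for the strand. Grey bars at 0 are genes with a mean under 1 FPKM, which were not tested. PARP9 (0.58), DTX3L (0.38) and PARP14 (0.38) lie above KPNA1 (-0.22, but 0.072 without siC replicate 3), HSPBAP1 (-0.13) and WDR5B (-0.26). FAM162A (0.48) lies above DTX3L and PARP14. APOBEC3C (2.69) and APOBEC3F (1.04) lie above DNAL4 (0.24) and CBX6 (-1.30).

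APOBEC3C (ENSG00000244509, chr22:39014257-39020352, plus strand) had the largest log2 change of the tested members. It was at 0.228, 0.366 and 0.155 FPKM in siC, from 14, 33 and 6 reads, and at 2.15, 1.89, 2.04 and 2.27 FPKM in siIGF2BP1, from 110, 100, 76 and 83 reads. The lowest siIGF2BP1 library stood far above the highest siC library. The log2 change was 2.69 (95% interval 2.05 to 3.33, limma adjusted p = 0.00184), with voom 2.98 (adjusted p = 0.000218), with a pseudocount of 1 it was 1.31 (adjusted p = 0.000803), and with no filter the adjusted p was 0.00266. It was 2.67 (0.0154), 2.73 (0.0112), 2.70 (0.0126) and 2.65 (0.0138) without siIGF2BP1 replicates 1, 2, 3 and 4 in turn, none of which passed, and it passed without each siC library.

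The APOBEC3 genes arose by duplication and resemble each other, so reads may be assigned to the wrong one. APOBEC3B, the other member, was at 0.266, 0.181 and 0.192 FPKM in siC and at 0.146, 0.0844, 0.159 and 0.163 FPKM in siIGF2BP1, from 27 and 16 reads, so that its siIGF2BP1 libraries were the lower ones. APOBEC3F, a neighbour outside the list named after its values were seen, was at 0.737 and 1.64 FPKM (log2 change 1.04, limma adjusted p = 0.0177). APOBEC3A, APOBEC3D, APOBEC3G and APOBEC3H were at 0.0636 FPKM or less in either group. On the far side CBX6, a Polycomb subunit, fell from 7.72 to 3.07 FPKM (log2 change -1.30, limma adjusted p = 0.000777). Other flanking genes had higher means in siIGF2BP1. DNAL4 and SUN2 had log2 changes of 0.24 and 0.45 that did not pass the test (0.087 and 0.18 without siC replicate 3). CBX7, past APOBEC3H, was at 0.699 and 0.991 FPKM and was not tested.

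The remaining tested genes of nucleic acid editing and decay, ADAR, SAMHD1 and ZC3HAV1, did not pass the test. ADAR (chr1:154581695-154628013, minus strand), which edits adenosine to inosine in double-stranded RNA, was at 92.8, 89.4 and 78.5 FPKM in siC and at 87.8, 83.5, 90.8 and 86.4 FPKM in siIGF2BP1. The groups overlapped, with a log2 change of 0.0069 (95% interval -0.17 to 0.19, limma adjusted p = 0.973). SAMHD1, which hydrolyses deoxynucleotides, was at 6.18 ± 0.695 and 5.91 ± 0.259 FPKM (SD, n = 3 and 4). ZC3HAV1, the antiviral protein ZAP that binds viral RNA, was at 12.2 ± 1.46 and 10.2 ± 0.80 FPKM (SD, n = 3 and 4; log2 change -0.25, limma adjusted p = 0.164). ISG20, an exonuclease, had a mean under 1 FPKM and was not in that test. It was at 0.635, 0.691 and 0.483 FPKM in siC and at 0.772, 0.862, 0.851 and 0.889 FPKM in siIGF2BP1, with all siIGF2BP1 libraries above all siC libraries (voom log2 change 0.45, adjusted p = 0.0718).

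**Figure D5:**
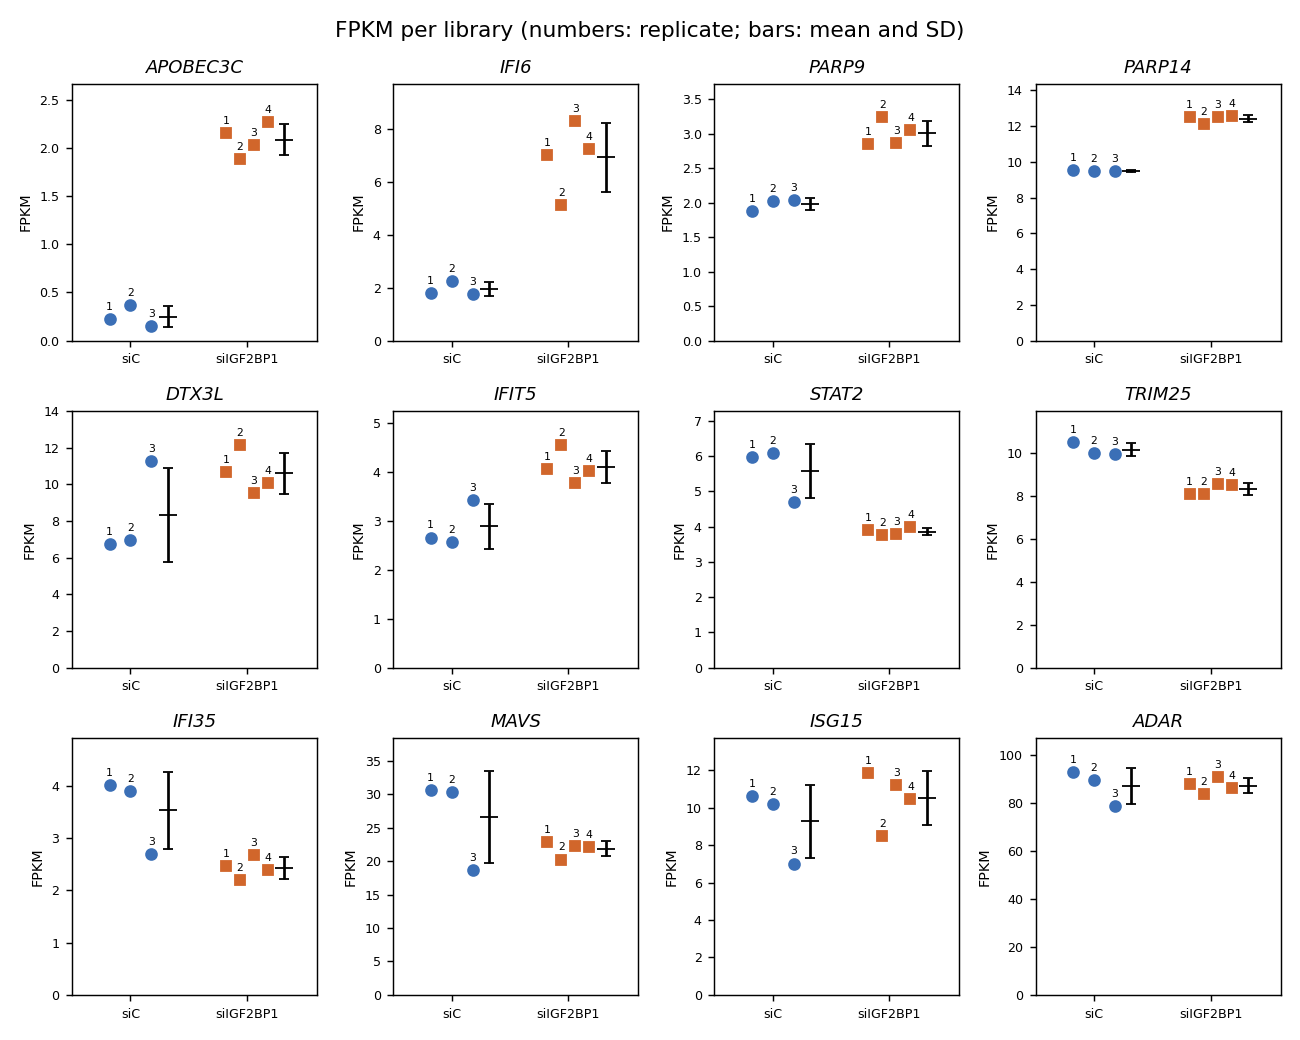
FPKM of 12 members in each library, with siC as blue circles, siIGF2BP1 as orange squares, replicate numbers beside the points and bars for the mean and SD (n = 3 and 4), on axes that start at 0. PARP14 rose from 9.49 to 12.4 FPKM with little spread, while siC replicate 3 lies away from its group for DTX3L, MAVS and IFI35.

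The ISG15 system attaches the ubiquitin-like protein ISG15 to other proteins. ISG15 was at 10.6, 10.2 and 7.02 FPKM in siC and at 11.8, 8.49, 11.2 and 10.5 FPKM in siIGF2BP1, with overlapping groups (log2 change 0.19, limma adjusted p = 0.559), and the log2 change was 0.0052 without siC replicate 3. USP18 (chr22:18150118-18177397, plus strand), which removes ISG15 and dampens the receptor, was at 12.7, 10.4 and 12.5 FPKM in siC and at 11.0, 10.2, 10.7 and 10.3 FPKM in siIGF2BP1. The ranges overlapped through siC replicate 2 (log2 change -0.16, SE 0.0842, limma adjusted p = 0.290). TRIM25, a ubiquitin ligase that acts on RIG-I, was at 10.5, 10.0 and 9.99 FPKM in siC and at 8.10, 8.10, 8.59 and 8.54 FPKM in siIGF2BP1. All 4 siIGF2BP1 libraries were below all siC libraries, and the log2 change of -0.29 (SE 0.0577, limma adjusted p = 0.0225) missed the threshold.

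Of the MX GTPases, which trap viral nucleocapsids, MX2 was at 7.72 ± 0.930 and 8.10 ± 0.494 FPKM (SD, n = 3 and 4), and MX1 at 0.145 ± 0.0348 and 0.162 ± 0.0420 FPKM. OAS1, OAS2 and OAS3 make the oligoadenylates that activate RNase L. None of the 4 OAS family members, OASL included, had a mean of 1 FPKM or more. The summed level of the 4 was 0.940 to 0.972 FPKM in siC and 1.04 to 1.35 FPKM in siIGF2BP1, most of it OAS3 (0.801 and 0.976 FPKM, voom log2 change 0.26, adjusted p = 0.321). OAS1 had 38 and 52 reads in the 2 groups, OASL 6 and 6, and OAS2 1 read in all.

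The IFITM proteins hinder the entry of viruses. IFITM3 had 11, 17 and 31 reads in siC and 14, 31, 13 and 19 in siIGF2BP1, so that siC replicate 3, at 1.67 FPKM, was above every other library. IFITM2 had 25 and 19 reads and IFITM1 3 and 1, and reads may be split among these near-identical genes. PML and SP100, which build nuclear bodies, were at 0.859 and 0.950 FPKM and at 0.928 and 1.02 FPKM, with overlapping groups. BST2, which tethers budding virions, had 4 and 11 reads. XAF1, which promotes apoptosis, had 0, 2 and 0 reads in siC and 5, 5, 0 and 3 in siIGF2BP1.

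The rest of the pathway was examined with 110 further genes. Of 21 interferon genes, which encode the ligands, 20 were listed at 0 in all 7 libraries, and IFNL2 had 2 reads, in siC replicate 1. All 6 receptor genes were tested, and 0 were higher or lower. Of 25 signalling genes 22 were tested, of which 2 were higher and 1 lower. STAT3, which carries the signal of interleukin-6 type cytokines, rose from 10.1 ± 0.430 to 14.5 ± 0.345 FPKM (SD, n = 3 and 4; log2 change 0.52, limma adjusted p = 0.00263). SOCS3, an inhibitor of that signal, rose from 1.09 ± 0.141 to 2.45 ± 0.330 FPKM (SD, n = 3 and 4; log2 change 1.10, limma adjusted p = 0.00649). MYD88, the adaptor of most Toll-like receptors but not of TLR3, fell from 8.97 ± 0.365 to 5.25 ± 0.442 FPKM (SD, n = 3 and 4; log2 change -0.76, limma adjusted p = 0.00256).

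Of 40 other interferon-induced genes 22 were tested, and 1 was higher, TRIM14, which acts with MAVS, from 5.06 ± 0.570 to 7.83 ± 0.356 FPKM (SD, n = 3 and 4; log2 change 0.62, limma adjusted p = 0.00636). Of 18 other sensors and editors 7 were tested, and 0 were higher or lower. Over the 110 genes 57 were tested, 3 were higher and 1 lower, where 1.65% and 2.28% of all tested genes were. They had a median log2 change of -0.068, against 0.063 over the 19 tested members and -0.017 over all tested genes. Without siC replicate 3, 4 of these genes were higher and 2 lower, where 3.59% and 6.67% of all tested genes were.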

How the data were processed

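RNA-seq of 3 siC and 4 siIGF2BP1 libraries was used, with groups from the sample titles. According to the study's methods and the submitters' processing notes, the authors depleted ribosomal RNA, built directional libraries, clipped reads with cutadapt 1.14, aligned them to GRCh38 with HISAT2 2.1.0, counted them with featureCounts 1.5.3 (Ensembl 89) and normalized them with edgeR 3.18.1. The values used are the FPKM deposited by the authors, 1 per gene and library. Columns with the authors' own comparison (a log2 ratio, its p-value and FDR) were not used. FPKM times gene length came out as whole reads (within 0.1 read) for 100% of values above 0, which gave depths of 12826550 to 33212205 reads per library and scaling factors of 0.964 to 1.03. For genes with few reads counting error limits the precision.

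Genes averaging 1 FPKM or more were tested two-sided on log2(FPKM + 0.1) in limma 3.58.1 (R 4.3.3), using its mean-variance trend and no covariate, after the fit had been tested on simulated data. P-values were adjusted by Benjamini-Hochberg, and 0.01 was the threshold. Libraries of a group differed by more than sampling noise. Chi-square over its degrees of freedom was 56.8 and 53.6 for the pairs with siC replicate 3 and 1.99 to 9.81 for the other pairs. Coordinates are those of GENCODE v44 on GRCh38, and promoters those of RefSeq (GRCh38.p14). The alternatives were another pseudocount, other filters, scalings, weights and thresholds, voom on the recovered reads, a replicate block, and each library left out in turn.

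The members, the lists of pathway and marker genes and the alternatives were chosen with earlier results of these data known. Values per library are given for members past the threshold, tested members with a log2 change of 0.5 or more in either direction, the 5 of highest mean, and others whose libraries are described. Of the other lists only genes past the threshold were to be named, and any further gene, neighbours included, was named after its values were seen.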

Additional observations from a re-analysis of the deposited data

Results flagged for a closer look

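In a group of 4 libraries, a library counts as far from the others where its gap to the nearest, divided by the range, is above Dixon's 95% critical value. Of the 20 results examined, 2 met this in siIGF2BP1, where chance gives about 1 in 20, and both concern siIGF2BP1 replicate 2. PARP14 was at 12.1 FPKM there, the lowest of the 4 libraries (ratio 0.922), still above every siC library. ZC3HAV1 was at 11.4 FPKM there, the highest (ratio 0.840), among the siC values. The 3 siC libraries were too few for this test.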

How the results depend on the processing

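Directions of the 4 members that rose held under every alternative that tested them, while their calls did not. Higher members numbered 1 at a mean of at least 5 FPKM, which leaves 11 members to test, 6 with array weights and 0 to 6 with 1 library left out. They numbered 3 with a pseudocount of 1, with no filter and at a mean of at least 0.1 FPKM, each time without PARP9 (adjusted p = 0.0107, 0.0212 and 0.0157), and a pseudocount of 1 lowered the log2 change of APOBEC3C from 2.69 to 1.31. Lower members numbered 4 with array weights, 2 at a threshold of 0.05 and 0 to 3 with 1 library left out. Over all 14839 tested genes the higher and lower calls were 245 and 338 in the main test. On the same genes they were 1022 and 1722 with array weights, 703 and 1010 at a threshold of 0.05 and 259 and 346 with a pseudocount of 1. Other filters gave 146 and 206 calls (none), 198 and 262 (a mean of at least 0.1 FPKM) and 169 and 299 (at least 5 FPKM). Higher and lower calls were 455 and 515 with voom. They were 66 to 533 and 53 to 990 with 1 library left out, and protein-coding genes alone gave 360 and 511. The cause of these shifts was not tested.

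With the replicate number as a block (replicate block), in which siIGF2BP1 replicate 4 stands alone and adds nothing, 0 members and 0 genes were called in either direction. For IGF2BP1 this fit gave -2.36 on the log2 scale, with a limma adjusted p of 0.0909. The numbers are not shown to pair the libraries: deviations from the group means correlated at -0.026, -0.12 and -0.11 for the same number, and each of the 3 siC libraries correlated best with a siIGF2BP1 library of another number (0.10, 0.057 and 0.20).

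Small changes turned direction. ADAR went to -0.044 and IRF3 to -0.16 with array weights, and SAMHD1 to 0.035. With 1 library left out ADAR ran from -0.064 to 0.056, IRF3 from -0.19 to 0.22, MX2 from -0.028 to 0.14, SAMHD1 from -0.10 to 0.032 and EIF2AK2 from -0.28 to 0.020. Depth limits the 28 members with a mean under 1 FPKM, 14 of which had 53 reads or fewer in all.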
